A study of Homo sapiens with 8 samples.

Results

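The comparison described here set A375 melanoma cells given full-length SLNCR1 against A375 cells given only the conserved region of SLNCR1. For each gene, log2 of construct over vector mean in the deposited conserved-region table was subtracted from the same value in the SLNCR1 table, and the result is called D, so that a negative D means a lower level with full-length SLNCR1. Genes entered with a mean of at least 50 normalized counts with the construct in at least 1 of the 2 tables and all 4 means above 0, which left 12762 of 56638 entries. Of these, 12356 reached 50 in both tables, 110 only with SLNCR1 and 296 only with the conserved region, and D in the last 2 sets is pushed away from 0 by that choice. The genes nearest the limit were GPR39, just inside with means of 50.01 with SLNCR1 and 44.91 with the conserved region (D 0.25), and HIST1H4I, just outside with 18.2 and 49.99 (D -1.36).

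SLNCR1 is a long noncoding RNA, a transcript that is not translated, and part of it is conserved between mammals. RNAs of this kind can bind proteins through separate segments, so that a full transcript and a fragment of it need not act alike. SLNCR1 has been tied to invasion of melanoma cells, and its proposed partners include the transcription factors POU4F1 and EGR1 and the metalloproteinase gene MMP9. The constructs thus allow the part of the RNA outside the conserved region to be examined.

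A375 is an established human melanoma line with an activated BRAF kinase, which keeps the ERK pathway on. The study had 4 groups with 2 libraries each: the empty plasmid pcDNA3.1(-) (vector), and the same plasmid carrying SLNCR1, SLNCR1 conserved (the conserved region alone) or SLNCR1 delta conserved (SLNCR1 without that region). All groups shared DMEM with 10% FBS, transfection with Lipofectamine 2000 at 24 h after seeding, harvest at 48 h after transfection, poly(A) selection and an NEBNext Ultra library kit that does not mark strand. Expression was thus transient and in 1 cell line, the share of cells that took up plasmid was not given in the sources used here, and reads cannot be assigned to 1 of a pair of overlapping genes by strand. Separate cultures for the 2 libraries of a group are not named in the labels, and the p-values then rest only on the spread among these libraries, which can be technical.

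The 2 SLNCR1 libraries held 10097194 and 9090649 reads assigned to genes and the 2 conserved-region libraries 11339739 and 10280768, with 8222868 to 12015394 in the other 4, and the deeper library of each group is called a and the other b. Both conserved-region libraries were deeper than both SLNCR1 libraries, and depth and construct cannot be told apart. SLNCR1 library b stood apart from the rest, at 24.04 on the second principal component (16% of the variance) against -18.32 to 4.96 for the other 7 libraries. On the first component (41.2%) the vector and conserved-region libraries lay at -20.3 to -14.09 and the SLNCR1 and delta-conserved libraries at 14.29 to 26.95. Per degree of freedom, the chi-square of library a against b was 4.24 for SLNCR1 and 1.18 for the conserved region. Melanoma markers of the line were present, with SOX10 at 3546 and 3675 normalized counts with SLNCR1 and at 3098 and 3358 with the conserved region, while the pigment genes PMEL, MLANA, TYR, TYRP1 and DCT were all under 43 normalized counts.

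The entry LINC00511 was taken as the readout of the RNA given by the plasmids, an assumption that neither the labels nor the values settle. In RefSeq SLNCR1 is a synonym of LINC00673, a name no entry of the tables carries. LINC00511 stood at 865 and 886 normalized counts with SLNCR1 and at 1052 and 1141 with the conserved region, against 628 and 621 in the vector libraries and 1155 and 870 with delta-conserved. Both SLNCR1 libraries were thus below both conserved-region libraries and above both vector libraries. D was -0.31, a 1.24-fold higher level with the conserved region, with an adjusted p of 0.0397 by limma (SE 0.10). The call was lost with library totals (adjusted p 0.0507 by limma), with a constant prior variance (0.242), without vector library a or b (0.0605 and 0.0588) and without conserved-region library a or b (0.0956 and 0.247). In bulk samples fewer cells with a transcript and less of it per cell cannot be told apart, and the entry does not tell plasmid from endogenous transcripts. Which stretch of SLNCR1 the entry counts, if any, is unknown here, so this value is not a measure of construct dose. POU4F1 (97 and 87 normalized counts with SLNCR1, 80 and 96 with the conserved region, adjusted p 0.827 by limma), MMP9 (23.1 and 18.8 against 20.5 and 14.0, under the level of the rule, adjusted p 0.671) and SRA1 (702 and 732 against 783 and 879, adjusted p 0.0769) did not pass. CDKN1A, a cell cycle inhibitor and p53 target, was at 2306 and 2567 with SLNCR1 and 2188 and 2356 with the conserved region (D 0.12, adjusted p 0.428 by limma).

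More genes were lower than higher with full-length SLNCR1, and the lower ones reached much larger differences. By limma on single libraries, at a Benjamini-Hochberg adjusted p under 0.05, 1441 of the 12762 genes were lower (11.3%) and 321 higher (2.52%). Over all 16073 genes tested the counts were 1520 lower (9.46%) and 330 higher (2.05%). At an unadjusted p under 0.05 the rule's genes split into 2425 lower and 1585 higher. D ran from -5.80 to 0.95 with a median of 0.03 and quartiles of -0.14 and 0.15, and 136 genes had a D of -1 or less, all of them called, while no gene reached 1. The called genes had a median D of -0.44 where lower and 0.32 where higher. Both SLNCR1 libraries were below both conserved-region libraries for 3792 genes (29.7%) and above them for 4099 (32.1%), among them all 1441 and 321 called ones. Lack of overlap, where it is given below for a called gene, is thus a description and no support beyond the call.

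**Figure D1:**
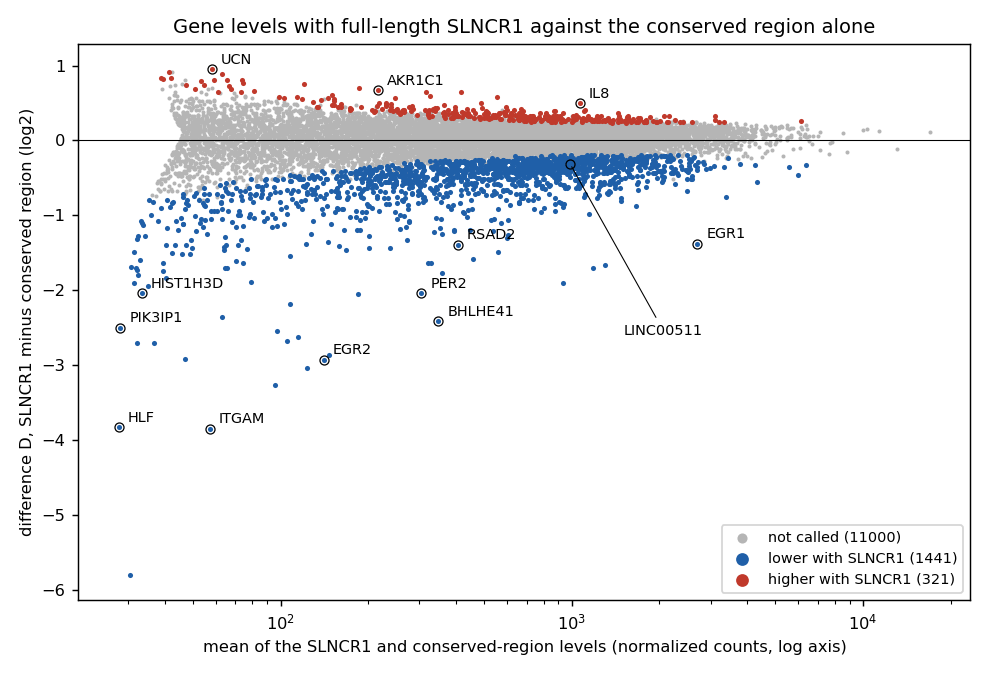
Difference D (log2, SLNCR1 minus conserved region) against the mean normalized count (log axis) for the 12762 genes, with the 1441 called lower in blue, the 321 called higher in red and the others grey. Calls above 0 lie within 0.95 of it, while the blue points reach down to -5.80.

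The counts moved with SLNCR1 library b and with transcript length and GC content. Without library b, 964 genes were lower and 114 higher, and 899 of the 1441 and 88 of the 321 were among them. Without library a, 2388 were lower and 1413 higher, with 1392 and 305 of the first calls kept. Genes called lower had a median longest transcript of 5417 bases and a GC content of 42.2%, genes called higher 2934 bases and 59.8%, and genes not called 3603 bases and 48.9% (97.4%, 98.4% and 95.4% of the sets had a length in GENCODE release 29). Of genes with transcripts over 8000 bases 30.3% were lower, against 4.19% of those under 1000, and without library b the shares were 14.8% and 3.91%. Between SLNCR1 libraries b and a the median log2 ratio was -0.25 for transcripts over 8000 bases and 0.15 for those under 1000, while the conserved-region libraries differed by -0.01 and 0.08. When a smooth of length and GC content was taken from each library, an alternative chosen after seeing the data, 1432 genes were lower and 785 higher, so that the share of higher genes among the calls went from 18.2% to 35.4%, with 1124 and 174 of the first calls kept. The part of length and of library b in single results was not tested, and the counts or calls that differ without library b are given below with each group of genes. With an SLNCR1 library left out, the SLNCR1 group has no replicate spread and the fit uses that of the other groups. Calls kept or lost in this way thus describe dependence on a library and are no separate test.

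**Figure D2:**
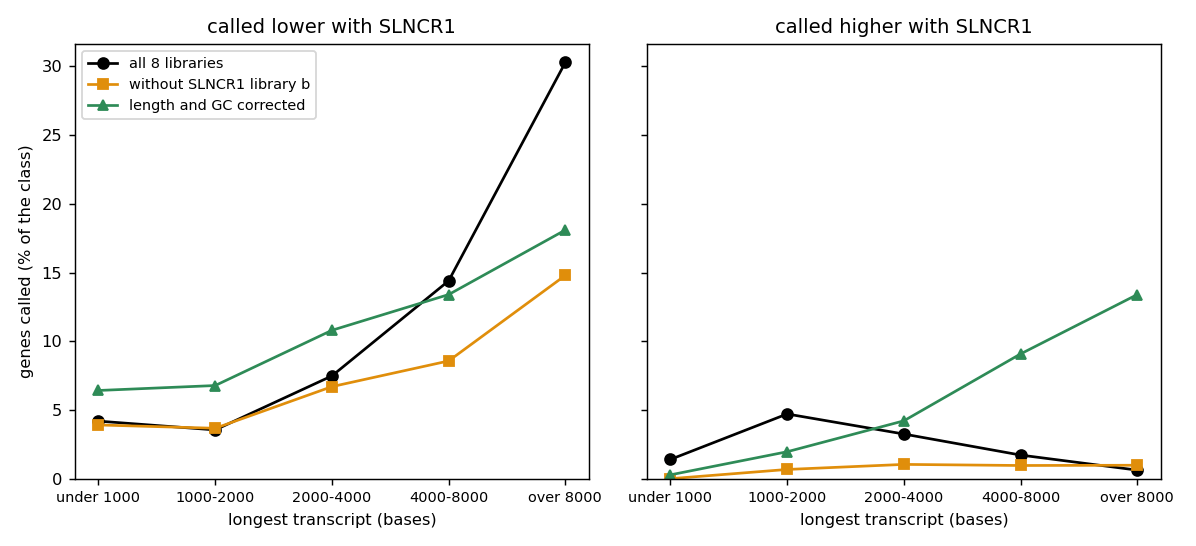
Percentage of genes called lower (left) and higher (right) with SLNCR1 by the length of the longest transcript in bases, with all 8 libraries, without SLNCR1 library b, and after removal of a smooth of length and GC content. The share of lower genes climbs with length to 30.3% in the longest class and to 14.8% without library b, while with the correction the shares of lower genes (6.42% to 18.1%) and of higher genes (0.279% to 13.4%) both climb with length.

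The groups of genes that stood lowest with SLNCR1 were replication-dependent histones, clock repressors and interferon effectors. Their median D was -1.05, -0.81 and -0.62, beside 0.03 over the 12762 genes, and the other lists of genes by function lay between -0.48 and 0.19, lists of cell type markers aside. The histones named below met the level of the rule only with the conserved region, which pushes their median downward. Genes of translation, respiration, the cell cycle, sterol synthesis and ERK output had medians between 0.08 and 0.17 with few calls. The counts called in each list below stand beside 11.3% lower and 2.52% higher over the rule's genes.

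**Figure D3:**
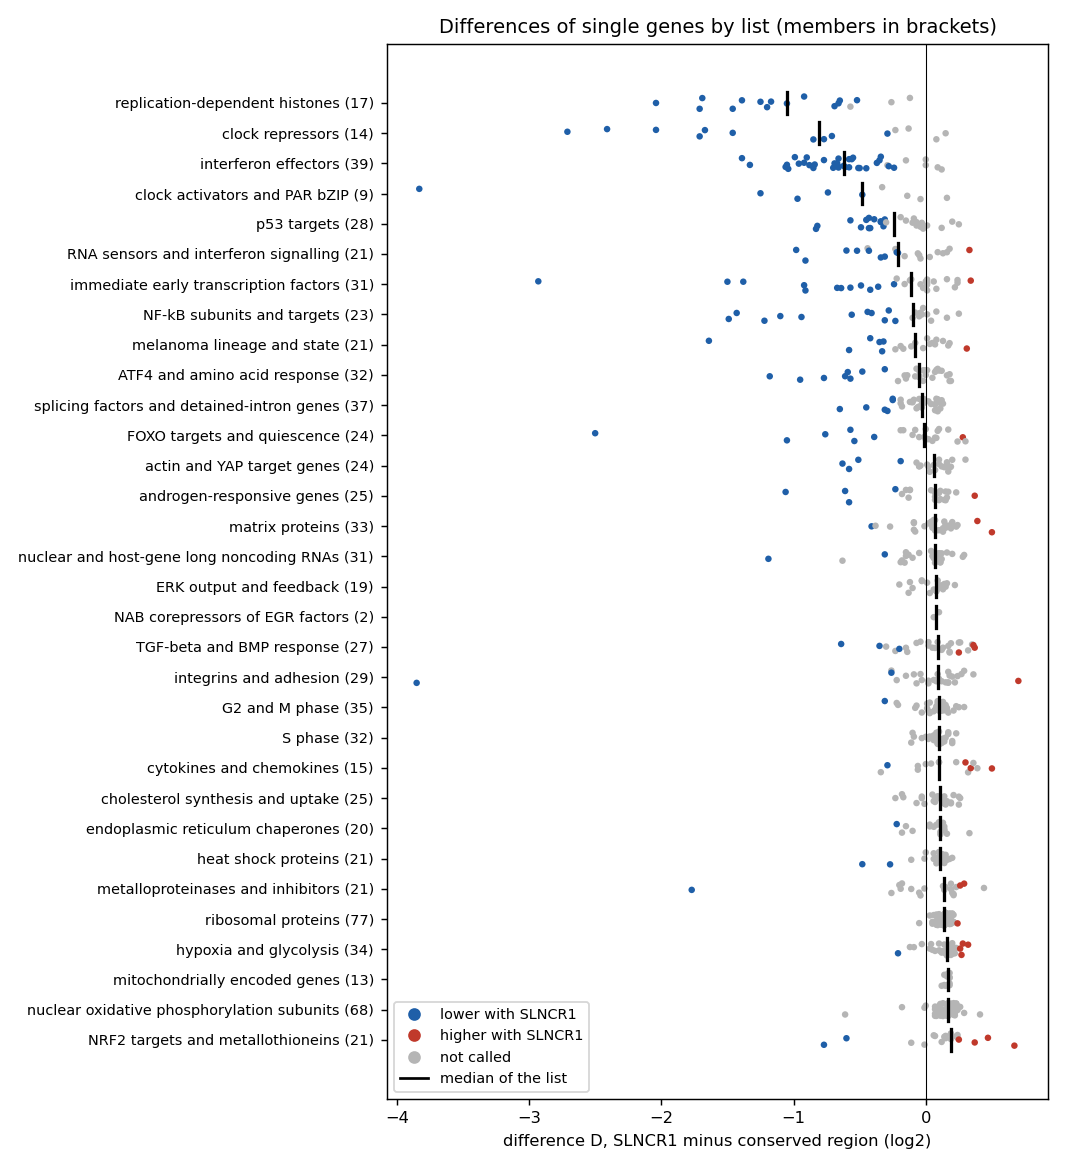
Difference D (log2) of the single members of 32 gene lists, ordered by the list's median (black bar), with genes called lower in blue and higher in red. Histones, clock repressors and interferon effectors are almost all left of 0, and ribosomal and respiratory genes sit in a narrow band just right of it.

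Most repressors of the circadian clock, and 5 of 9 of its activators and output factors, were lower with full-length SLNCR1. In this loop the activators CLOCK and ARNTL drive the PER, CRY, NR1D and BHLHE repressors and the PAR bZIP factors through E-box sites, and the repressors then shut their own transcription off. Of 14 clock repressors 10 were lower, none higher and 4 not called, and of the 9 activators and PAR bZIP factors 4 were not called and none was higher. Without SLNCR1 library b the counts of lower genes were 10 and 4. PER1 stood at 596 and 641 normalized counts with SLNCR1 and at 1986 and 2000 with the conserved region, a 3.18-fold difference (adjusted p 6.48e-11 by limma). NR1D1, the nuclear receptor that represses ARNTL, was at 569 and 529 against 1775 and 1866 (3.27-fold, adjusted p 6.48e-11). PER2 was at 125 and 112 against 502 and 480 (4.10-fold, adjusted p 5.28e-10). In each of these the SLNCR1 libraries lay far below the conserved-region libraries with no overlap, the vector libraries lay with the conserved region and the delta-conserved libraries with SLNCR1.

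BHLHE41, an E-box repressor, was at 109 and 109 normalized counts with SLNCR1 and at 569 and 605 with the conserved region (D -2.41, adjusted p 5.8e-10 by limma). C1orf51, also named CIART, a repressor of CLOCK and ARNTL, was at 6.04 and 13.2 against 51.7 and 76.0 (D -2.71, adjusted p 4.59e-05). PER3 had 88.6 and 89.4 against 226 and 269 (D -1.46, adjusted p 7.65e-07). The D of CRY2, NR1D2 and CRY1, also called lower, was -0.85, -0.77 and -0.71. The members not called were NFIL3 (-0.23), BHLHE40 (-0.13) and the casein kinases CSNK1D (0.08) and CSNK1E (0.15). Against the shared vector libraries the median log2 ratio of the 14 repressors was -0.83 in SLNCR1 cells, 0.02 in conserved-region cells and -0.78 in delta-conserved cells.

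The PAR bZIP factors, which carry clock output to metabolic genes, went the same way. HLF stood at 5.03 and 2.21 normalized counts with SLNCR1 and at 47.2 and 57 with the conserved region (D -3.83, adjusted p 5.59e-06 by limma), a value that rests on few reads. HLF and C1orf51 met the level of the rule only with the conserved region, and their D is pushed downward by that choice. TEF had 198 and 221 against 509 and 505 (2.39-fold, adjusted p 1.49e-07), and DBP 275 and 298 against 540 and 599 (1.96-fold, adjusted p 3.39e-06). Of the activators, ARNTL was lower (179 and 190 against 268 and 253, D -0.48, adjusted p 0.00559) and so was RORA (D -0.74, adjusted p 0.0413), which was not called without library b. CLOCK (D -0.33, adjusted p 0.0532), RORB (D -0.14), ARNTL2 (D -0.04) and NPAS2 (D 0.16) did not pass.

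**Figure D4:**
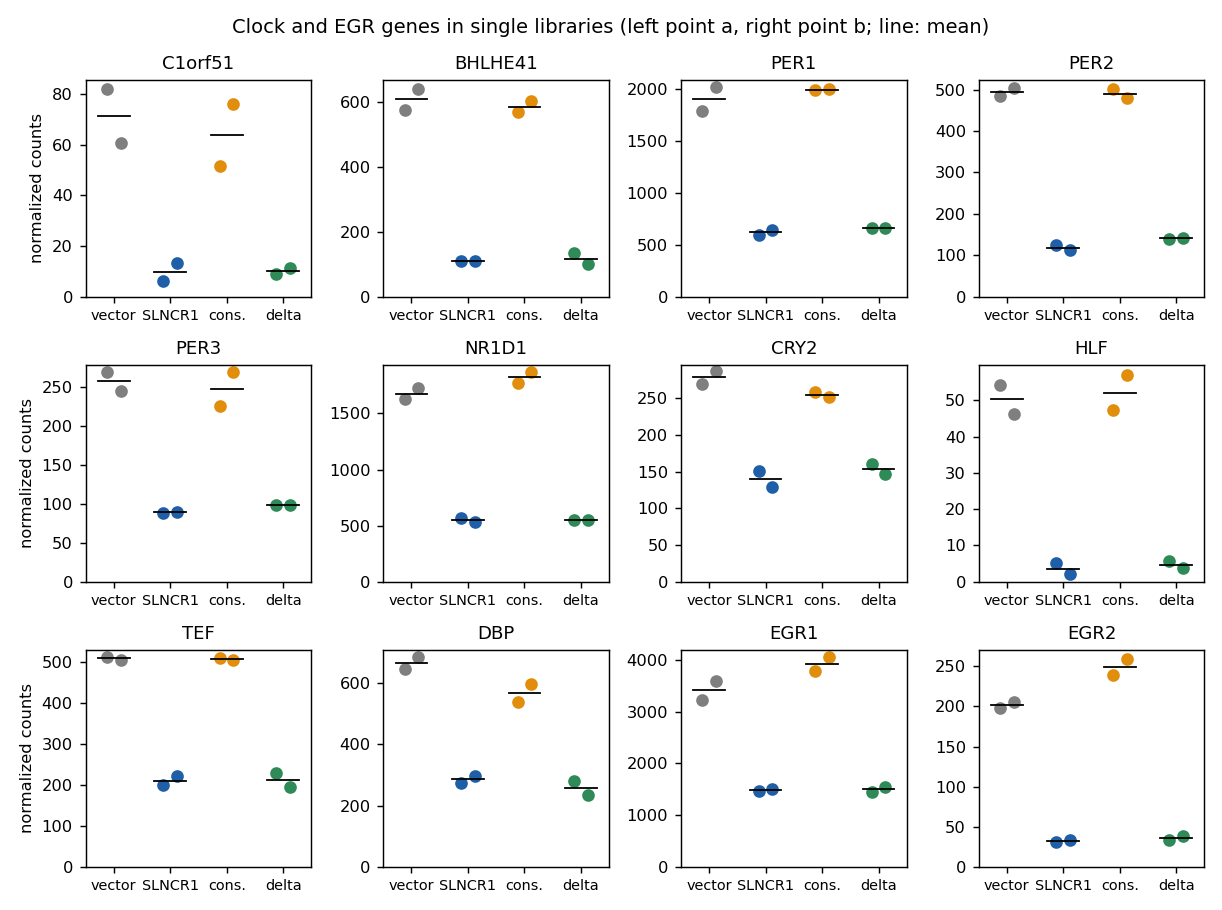
Normalized counts of 10 clock genes, EGR1 and EGR2 in the 8 single libraries, with 1 point for each library, a line for the group mean and axes from 0 (cons., conserved region; delta, delta-conserved). In every panel both SLNCR1 points lie below both conserved-region points, the vector points are near the latter and the delta-conserved points near the former.

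The E-box named above could be looked for in the promoters of these genes. The promoters of 3 clock repressors called lower are shown because they hold the letters CACGTG (capitals) in the 250 bases before the start, from RefSeq on GRCh38.p14. C1orf51 lies on chr1:150282304-150282553 (plus strand), BHLHE41 on chr12:26125038-26125287 and PER1 on chr17:8152405-8152654 (both minus strand).
C1orf51: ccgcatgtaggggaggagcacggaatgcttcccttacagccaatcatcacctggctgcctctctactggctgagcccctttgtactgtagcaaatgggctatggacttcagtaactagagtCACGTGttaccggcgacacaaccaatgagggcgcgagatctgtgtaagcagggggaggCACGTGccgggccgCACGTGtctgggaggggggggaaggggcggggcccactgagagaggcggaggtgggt
BHLHE41: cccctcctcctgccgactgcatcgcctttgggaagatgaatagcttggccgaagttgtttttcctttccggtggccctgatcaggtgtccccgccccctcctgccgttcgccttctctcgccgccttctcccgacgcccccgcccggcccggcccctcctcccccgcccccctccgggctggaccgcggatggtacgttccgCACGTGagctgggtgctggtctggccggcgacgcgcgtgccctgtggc
PER1: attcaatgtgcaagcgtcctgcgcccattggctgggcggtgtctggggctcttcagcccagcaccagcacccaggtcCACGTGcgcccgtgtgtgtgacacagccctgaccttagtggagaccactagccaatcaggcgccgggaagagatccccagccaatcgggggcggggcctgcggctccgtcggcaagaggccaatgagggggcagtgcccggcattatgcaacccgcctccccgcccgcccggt
C1orf51 had 3 such matches, the first beginning 129 bases before the start, BHLHE41 had 1 at 48 bases and PER1 had 1 at 173 bases. A promoter was listed for 12 clock repressors, and 4 of them (33.3%) held CACGTG, which reads the same on both strands. Of the 9 called lower 3 held it (33.3%). The share was 8.96% of 9862 promoters of the rule's genes, 6.34% of all 35116, 11.2% of the genes called lower and 8.14% of those called higher. PER2 and NR1D1 had no match in this window.

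Within the immediate early genes, which growth factors induce within minutes and many of which encode transcription factors, EGR2, EGR1 and EGR4 fell furthest with SLNCR1. EGR1 stood at 1465 and 1499 normalized counts with SLNCR1 and at 3779 and 4058 with the conserved region, against 3228 and 3586 with vector and 1453 and 1539 with delta-conserved. The SLNCR1 and conserved-region libraries did not overlap, and the difference was 2.61-fold (D -1.38, adjusted p 5.8e-10 by limma). EGR2 was at 31.2 and 33.1 against 239 and 259 (7.64-fold, adjusted p 1.19e-09 by limma), and EGR4 at 24.2 and 19.9 against 57 and 69.0 (2.83-fold, adjusted p 0.000575). EGR2 and EGR4 met the level of the rule only with the conserved region, and their D is pushed downward by that choice. EGR3 did not pass (208 and 184 against 169 and 168, D 0.24, adjusted p 0.257 by limma).

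Of 31 immediate early genes, not all of them transcription factors (CTGF and CYR61 are members), 12 were lower and 1 higher, with a median D of -0.11. FOSB had a D of -0.91 (adjusted p 1.99e-05 by limma), KLF4 one of -0.67 (adjusted p 2.4e-05) and the nuclear receptor NR4A3 one of -0.92 (adjusted p 0.0274), and NR4A3 was not called without SLNCR1 library b. NR4A1 was the member that was higher (667 and 754 normalized counts against 567 and 568, D 0.34, adjusted p 0.0112), and its call was also lost without library b. FOS, JUN and MYC had D of -0.11, -0.02 and 0.06 and did not pass. None of the 19 genes of ERK output and feedback was called by limma, among them DUSP6, the phosphatase of ERK, at 1773 and 1882 with SLNCR1 and 1667 and 1824 with the conserved region (D 0.09, adjusted p 0.556). The largest differences in that list were 0.22 for IER3 and -0.20 for SPRY1. NAB1 and NAB2, corepressors that bind EGR proteins, had D of 0.06 and 0.10.

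Interferon effectors, the antiviral proteins that interferon induces, were lower with SLNCR1 in 33 of 39 cases, with none higher. Of the 39, 36 had a D below 0, and 35 were lower without SLNCR1 library b. RSAD2, an enzyme that makes a chain-terminating nucleotide, stood at 208 and 236 normalized counts with SLNCR1 and at 556 and 622 with the conserved region (2.61-fold, adjusted p 1.25e-05 by limma). XAF1, a pro-apoptotic protein, was at 142 and 166 against 390 and 393 (2.51-fold, adjusted p 5.86e-06). IFIT2, of a family that binds foreign RNA, was at 313 and 368 against 672 and 764 (2.08-fold, adjusted p 0.000447). For all 3 the groups did not overlap, with the vector libraries between them, and the delta-conserved libraries lay within or below the range of the SLNCR1 libraries, apart from IFIT2 in delta-conserved library a (404).

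CMPK2, EPSTI1 and IFI27, next by size, had D of -1.05, -1.04 and -0.99 with adjusted p-values of 0.00367, 0.0219 and 0.0022 by limma. The members not called were ISG15 (-0.29), IFI6 (-0.15), ISG20 (0.00), IFI35 (0.00), IFITM3 (0.09) and IFITM2 (0.12). Against the shared vector libraries the list's median log2 ratio was -0.33 in SLNCR1 cells, 0.32 in conserved-region cells and -0.40 in delta-conserved cells. The median difference from the conserved-region libraries was -0.79 for SLNCR1 library a and -0.53 for library b.

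**Figure D5:**
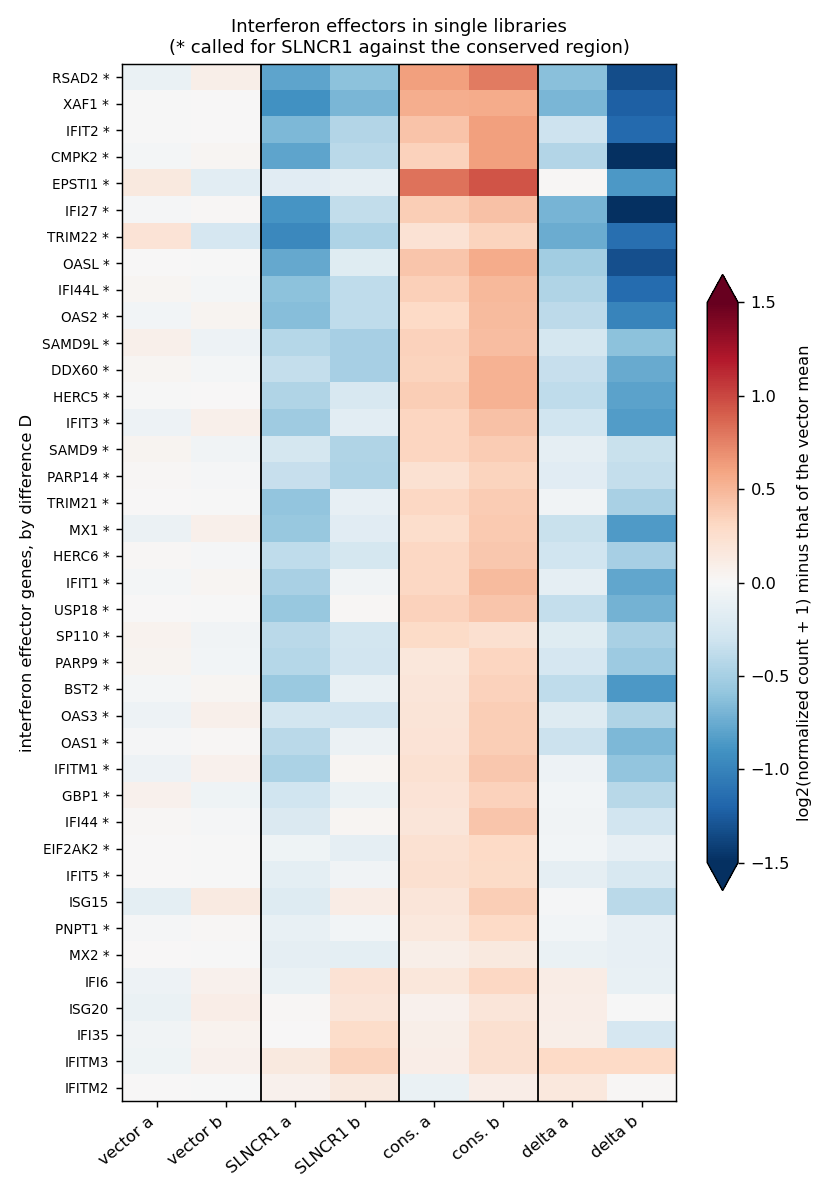
Level of the 39 interferon effectors in the 8 single libraries as log2(normalized count + 1) minus the same for the vector mean, with colours from -1.5 (blue) to 1.5 (red) and genes ordered by D, an asterisk marking those called. Both conserved-region libraries are red and both SLNCR1 libraries blue for most genes, with delta-conserved library b the darkest blue, down to -1.56.

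Interferon acts on these genes through STAT and IRF factors at the interferon-stimulated response element, whose core was searched as GAAANNGAA on both strands. The promoters of 3 effectors called lower are shown with the matches in capitals (RefSeq, GRCh38.p14, the 250 bases before the start). RSAD2 lies on chr2:6865635-6865884 and IFIT3 on chr10:89327747-89327996 (plus strand), and SAMD9 on chr7:93117980-93118229 (minus strand), the last 2 being chosen after their values were seen.
RSAD2: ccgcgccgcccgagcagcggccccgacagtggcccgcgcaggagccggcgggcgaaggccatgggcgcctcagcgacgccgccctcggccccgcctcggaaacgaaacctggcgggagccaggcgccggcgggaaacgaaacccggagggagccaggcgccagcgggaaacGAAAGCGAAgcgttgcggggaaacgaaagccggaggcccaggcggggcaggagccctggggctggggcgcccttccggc
IFIT3: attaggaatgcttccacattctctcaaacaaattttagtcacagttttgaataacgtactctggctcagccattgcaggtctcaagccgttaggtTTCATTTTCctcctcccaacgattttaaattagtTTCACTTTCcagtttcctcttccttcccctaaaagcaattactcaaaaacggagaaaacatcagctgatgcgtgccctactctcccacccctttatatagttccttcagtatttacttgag
SAMD9: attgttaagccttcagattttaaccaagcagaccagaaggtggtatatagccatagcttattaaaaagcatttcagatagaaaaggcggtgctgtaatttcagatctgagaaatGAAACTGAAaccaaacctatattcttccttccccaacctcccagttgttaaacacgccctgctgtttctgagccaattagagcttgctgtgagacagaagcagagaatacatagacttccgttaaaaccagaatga
In IFIT3 both matches are on the other strand. IFIT3 stood at 868 and 1132 normalized counts with SLNCR1 and 1582 and 1706 with the conserved region (D -0.70), and SAMD9 at 1097 and 960 against 1653 and 1716 (D -0.69). A promoter was listed for 32 effectors, and 20 of them (62.5%) held the core. The share was 5.5% of 9862 promoters of the rule's genes, 6.88% of all 35116, 6.81% of the genes called lower and 3.1% of those called higher. Within the list, 16 of the 27 effectors called lower (59.3%) held it, so the core did not mark the called members. XAF1 had no match in its window. A match of letters is a description and shows no binding.

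Upstream of the effectors, cytoplasmic RNA sensors were lower and no interferon receptor gene was called. DDX58, the RNA helicase sensor also known as RIG-I, stood at 709 and 822 normalized counts with SLNCR1 and at 1434 and 1618 with the conserved region (1.97-fold, adjusted p 0.000129 by limma), without overlap. IFIH1, the sensor of long double-stranded RNA, was at 278 and 350 against 589 and 605 (1.88-fold, adjusted p 7.98e-05). Of 21 sensors and signalling genes 9 were lower (8 without SLNCR1 library b) and SOCS3, a feedback inhibitor, was higher (D 0.33, adjusted p 0.0139). Others called lower were the transcription factors IRF1 (D -0.60) and IRF7 (D -0.43) and the helicase DHX58 (D -0.52). IFNAR1 and MAVS had D of 0.03 and -0.04 (adjusted p 0.929 and 0.646 by limma).

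The NF-kB list was lower in part and the cytokines mostly were not. Of 23 NF-kB subunits and targets 11 were lower (10 without SLNCR1 library b) and none higher, with a median D of -0.10. The inhibitor of apoptosis BIRC3 was at 299 and 283 normalized counts with SLNCR1 and at 791 and 868 with the conserved region (2.82-fold, adjusted p 4.23e-09 by limma). The subunit gene REL was at 142 and 74.0 against 303 and 287 (2.70-fold, adjusted p 7.59e-05), with SLNCR1 library b the lower of the pair. TRAF1, NFKBIE, CD83 and RELB had D of -1.22, -1.10, -0.94 and -0.56, while RELA and NFKBIA, at -0.04 and -0.08, were not called.

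Of 15 cytokines IL8, IL11 and IL24 were higher and CSF1 lower. IL8, the neutrophil chemokine, was at 1168 and 1313 normalized counts with SLNCR1 and at 888 and 897 with the conserved region, above both vector libraries (692 and 701) in each case (D 0.50, adjusted p 0.000457 by limma). IL11 had a D of 0.34 (adjusted p 0.00694), IL24 one of 0.30 (adjusted p 0.0258) and the macrophage growth factor CSF1 one of -0.29 (adjusted p 0.00727). IL6 did not pass (226 and 262 against 190 and 189, D 0.39, adjusted p 0.0678 by limma).

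Stress response genes were lower in part. Of 28 p53 targets 13 were lower and none higher, with a median D of -0.24. The receptor gene EDA2R was at 231 and 193 normalized counts with SLNCR1 and at 365 and 397 with the conserved region (D -0.83, adjusted p 7.92e-05 by limma), and the phosphatase PPM1D at 499 and 446 against 829 and 857 (D -0.82, adjusted p 1.37e-06). SESN1, FAS, XPC and AEN had D of -0.57, -0.49, -0.45 and -0.43. The groups did not overlap in any of the 6, as in every gene called lower and in 29.7% of the rule's genes. Of 24 FOXO targets and quiescence genes 6 were lower and 1 higher. PIK3IP1, an inhibitor of PI3 kinase, was at 9.06 and 7.73 against 41.0 and 55 (5.64-fold, adjusted p 4.71e-05), and the arrestin-like genes ARRDC4 and ARRDC3 had D of -1.05 and -0.76. TXNIP, of the same protein family, had one of -0.39 (adjusted p 0.000549), FOXO3 itself one of -0.54 (adjusted p 0.000882) and PINK1 one of 0.28, and PINK1 was not called without library b.

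Of 32 genes of the ATF4 amino acid response 8 were lower and none higher, with a median D of -0.05. CTH, which makes cysteine, stood at 158 and 153 normalized counts with SLNCR1 and at 356 and 359 with the conserved region (2.27-fold, adjusted p 8.39e-07 by limma). The cystine transporter SLC7A11, at 999 and 794 against 1527 and 1576, had a D of -0.77 (adjusted p 2.06e-05), and the glutathione-degrading enzyme CHAC1 one of -0.95 (adjusted p 0.000123). DDIT3, ALDH1L2 and ATF3 had D of -0.61, -0.59 and -0.57. ATF4, at 0.08, and the serine synthesis genes PHGDH and PSAT1, at 0.09 and 0.10, were not called.

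Replication-dependent histone genes had the lowest median of the lists by function, at -1.05. These genes make mRNAs that for the most part end in a stem-loop without a poly(A) tail. In these poly(A)-selected libraries 17 of the 62 in the tables met the level of the rule. Of the 17, 14 were lower and none higher, and 12 were lower without SLNCR1 library b. HIST1H3D stood at 17.1 and 8.83 normalized counts with SLNCR1 and at 49.9 and 58.0 with the conserved region (D -2.04, adjusted p 0.000166 by limma). HIST1H4H was at 34.2 and 33.1 against 89.1 and 99.0 (D -1.46, adjusted p 5.75e-05) and the linker histone HIST1H1D at 29.2 and 36.4 against 86.4 and 72.0 (D -1.25, adjusted p 0.000958). HIST1H3H, HIST1H2BN and HIST1H2AG had D of -1.71, -1.69 and -1.39. Copies of histone genes are near-identical and most levels were low, so single members are uncertain. Of 32 S phase genes none was called by limma, with a median D of 0.10, and E2F1 had the largest, at 0.23 (adjusted p 0.0715).

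The largest differences downward included ITGAM, of the integrin list, and several genes of none of the lists. ITGAM, the alpha M integrin chain best known from leukocytes, stood at 8.05 and 6.62 normalized counts with SLNCR1 and at 99.8 and 114 with the conserved region (14.4-fold, adjusted p 1.5e-06 by limma). The phospholipase gene PLA2G4C was at 24.2 and 28.7 against 217 and 223 (8.22-fold, adjusted p 9.34e-09), and NEURL3 at 38.2 and 32.0 against 252 and 265 (7.27-fold, adjusted p 3.03e-09). In all 3 the vector libraries were also above both SLNCR1 libraries. The tetraspanin TSPAN2, the epidermal lipoxygenase ALOXE3, the chloride channel BEST1 and the phosphodiesterase PDE4C had D of -2.68, -2.63, -2.55 and -2.71. ASNSP1 (-2.92) is a pseudogene that may take reads of ASNS and is uncertain. The lowest D of all, -5.80, was that of RP5-983L19.2, an entry without a matching symbol that had 1.01 and 1.10 normalized counts with SLNCR1 and 69.5 in conserved-region library a.

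The 12 largest differences upward belonged to genes of low level and were at most 1.93-fold. UCN, a peptide related to corticotropin-releasing hormone, was at 65.4 and 87.2 normalized counts with SLNCR1 and at 39.2 and 41.0 with the conserved region (adjusted p 0.0128 by limma). The calcium-binding protein S100P was at 84.5 and 103 against 51.7 and 57 (1.75-fold, adjusted p 0.00881), and S1PR4, a lipid receptor, at 151 and 149 against 90.0 and 91.0 (1.68-fold, adjusted p 0.0104). The others were DLX4, IFITM10, NMRK1, DRD4, ANXA10, SLC16A8, P2RX6, PROM2 and GLDC, with D of 0.74 to 0.91. UCN, DLX4, IFITM10, NMRK1, DRD4, ANXA10, SLC16A8, PROM2 and GLDC had means above 50 normalized counts with SLNCR1 and below 50 with the conserved region. These means are on the common scale of the 8 libraries, which is not exactly that of the tables used by the rule. Genes that met the level of the rule only with SLNCR1 have a D pushed upward by that choice. Without SLNCR1 library b only DLX4 and S1PR4 of the 12 were called. AKR1C1, a steroid-reducing enzyme, kept its call in every alternative that was run, at 269 and 260 against 164 and 173 (1.59-fold, adjusted p 0.000559), but its copies AKR1C2 (0.47) and AKR1C3 (0.37) are so alike that reads could be split between them. The integrin ITGB7 (208 and 249 against 137 and 148, D 0.70, adjusted p 0.00148 by limma) and the secreted matrix protein SPP1 (549 and 588 against 405 and 412, D 0.50, adjusted p 0.000559) also kept theirs.

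Genes of melanoma identity and invasion moved little as groups. Of 21 genes of melanoma lineage and state 6 were lower and 1 higher, but only 2 lower without SLNCR1 library b. The mitochondrial coactivator PPARGC1A stood at 45.3 and 26.5 normalized counts with SLNCR1 and at 106 and 120 with the conserved region (3.11-fold, adjusted p 5.69e-05 by limma), and ZEB2, a repressor of epithelial genes, at 400 and 301 against 551 and 511 (D -0.58, adjusted p 0.00147). MITF, the melanocyte master regulator, was at 670 and 540 against 791 and 755 (D -0.33, adjusted p 0.0172), a call that was lost without library b. Those of EGFR, NRG1, ZEB1 and the WNT inhibitor DKK1 (D -0.35, -0.42, -0.32 and 0.31) were lost as well.

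Of 21 metalloproteinases and inhibitors MMP19 was lower, and MMP14 and the inhibitor TIMP1 were higher. Over the rule's genes 11.3% were lower and 2.52% higher, and the small counts of the lists in this paragraph are not read as traits of the lists. MMP19 was at 159 and 162 normalized counts with SLNCR1 and at 555 and 556 with the conserved region (3.41-fold, adjusted p 2.34e-09 by limma), with 505 and 436 in the vector libraries. MMP14, which activates other proteinases at the cell surface, had a D of 0.26 (adjusted p 0.0365) and TIMP1 one of 0.29 (adjusted p 0.0303), and neither was called without library b. Of 25 androgen-responsive genes ZBTB10 (D -1.06, adjusted p 1.21e-05), TSC22D3, LIFR and ELK4 were lower and PMEPA1 higher (D 0.37, adjusted p 0.00327), and ZBTB10 and PMEPA1 were called without library b. Of 27 TGF-beta and BMP genes 3 were higher and 3 lower, led by KLF10 (D -0.64, adjusted p 4.48e-06) and PMEPA1. Without library b 2 were higher and 2 lower, since TGFB1 (D 0.25) and SMURF1 (D -0.20) were not called. Of 33 matrix genes 2 were higher, SPP1 and COL18A1 (D 0.39), and COL12A1 was lower (D -0.41), while without library b none was lower and 3 were higher, SPP1 with COL5A1 and COL6A3 in place of COL18A1. Of 29 integrins and adhesion genes ITGB7 was higher and ITGAM and ALCAM were lower, ALCAM only with library b included. Of 24 actin and YAP targets 4 were lower, LATS2 (D -0.63), AJUBA (D -0.58), ACTA2 (D -0.51) and AMOTL2 (D -0.19, not called without library b), while CTGF and CYR61, at -0.04 and 0.01, were not called.

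Housekeeping groups had small positive medians. Of 77 ribosomal protein genes 76 had a D above 0, with a median of 0.14, but only RPL28 was called (D 0.24, adjusted p 0.0491 by limma), and it was not called without SLNCR1 library b. Of 68 nuclear genes of oxidative phosphorylation none was called by limma (median 0.17). All 13 mitochondrially encoded genes had a D above 0 (median 0.17), and none was called either, with MT-CO1 at 1829 and 1987 normalized counts with SLNCR1 and 1611 and 1804 with the conserved region (adjusted p 0.2). The median difference of ribosomal genes from the conserved region was 0.05 in SLNCR1 library a and 0.18 in library b, and that of the mitochondrially encoded genes 0.09 and 0.21. Over the rule's genes D was above 0 for 7170 and below 0 for 5592. Genes with transcripts of 1000 to 2000 bases had a median D of 0.14, and those under 1000 bases 0.16. Median lengths were 1826 bases for the ribosomal, 1510 for the nuclear respiratory and 784 for the mitochondrially encoded genes. Whether these groups differ from other genes of like length was not tested. Of 34 hypoxia and glycolysis genes PFKFB4, ALDOC, ENO2 and P4HA2 were higher (D 0.32 to 0.26) and the demethylase KDM3A lower (-0.21), and without library b only PFKFB4 was called. Of 21 NRF2 targets and metallothioneins 4 were higher, the AKR1C genes and SLC48A1 (0.25, not called without library b), and SLC7A11 and OSGIN1 (-0.60) were lower. Cholesterol genes (25 members, none called by limma), endoplasmic reticulum chaperones (20, with HERPUD1 lower) and heat shock proteins (21, with DNAJB4 and, except without library b, CHORDC1 lower) had medians of 0.11. Of 35 genes of G2 and M phase only CENPE was lower (D -0.31), and it was not called without library b.

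Among noncoding RNAs and splicing genes a few members were called, where 11.3% of the rule's genes were called lower and 2.52% higher. The counts here thus point to single members and not to a trait of the lists. Of 31 long noncoding RNAs PVT1 and LINC00511 were lower, and without SLNCR1 library b SNHG12 was the third called lower. PVT1, a neighbour of MYC, stood at 221 and 252 normalized counts with SLNCR1 and at 517 and 581 with the conserved region (2.29-fold, adjusted p 6.16e-07 by limma). MALAT1 and NEAT1 had D of 0.09 and 0.16 and were not called. Of 37 splicing factors and genes with detained introns 6 were lower, led by the splicing kinases CLK4 (258 and 276 against 438 and 410, D -0.65, adjusted p 9.71e-05) and CLK1 (582 and 613 against 837 and 818, D -0.45, adjusted p 0.000292). SON, NKTR, TRA2A and MDM4 had D of -0.31, -0.29, -0.25 and -0.25, and of these only TRA2A was called without SLNCR1 library b.

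Around the SLNCR1 locus, in the gene order of RefSeq on GRCh38.p14, KCNJ2 was the 1 of 6 flanking genes that was called, where 11.3% of the rule's genes were called lower. This potassium channel gene stood at 110 and 125 normalized counts with SLNCR1 and at 200 and 200 with the conserved region, with 190 and 190 in the vector libraries (D -0.75, adjusted p 0.000511 by limma). SOX9, the nearest of these on one side, had a D of 0.07 (adjusted p 0.738), and SLC39A11 on the other one of 0.09 (adjusted p 0.648). MAP2K6, COG1 and CDC42EP4 had D of 0.28, -0.19 and 0.09 and did not pass.

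The genes that were lower with SLNCR1 than with the conserved region tended to be lower with delta-conserved than with vector. That second contrast uses none of the 4 libraries of the first, though the limma fit pools the spread over all 8. Both delta-conserved libraries (9187241 and 8222868 reads) were shallower than both vector libraries (12015394 and 11321294). Depth thus ran the same way as in the first contrast, and depth and construct cannot be told apart here either. Over all genes tested it called 832 higher (5.18%) and 842 lower (5.24%), and over the rule's genes 826 higher (6.47%) and 773 lower (6.06%). With trimmed-mean scaling the latter split was 405 higher and 1022 lower, and with library totals 497 and 1075. Of the 1441 lower genes 575 (39.9%) were lower with delta-conserved and 1 higher, and 1381 had a difference below 0, with a median of -0.26 (limma coefficient, log2). Of the 321 higher genes 44 (13.7%) were higher with delta-conserved and none lower, with a median of 0.11. The count of 575 became 199 without vector library a, 311 and 254 without delta-conserved library a and b, and the count of 44 became 11, 19 and 10.

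Single genes showed this to different degrees. EGR2 stood at 33.4 and 37.9 normalized counts with delta-conserved and at 198 and 206 with vector (limma coefficient -2.47, adjusted p 1.61e-08), MMP19 at 159 and 145 against 505 and 436 (-1.62, adjusted p 1.31e-08) and NR1D1 at 553 and 546 against 1626 and 1725 (-1.61, adjusted p 2.44e-10). Of the 14 clock repressors 10 were lower in this contrast and none higher. Of the 39 interferon effectors 22 were lower and IFITM3 was higher (813 and 809 against 632 and 687). Other genes lower with SLNCR1 were not called with delta-conserved, such as TXNIP (2225 and 2344 against 2335 and 2491, coefficient -0.08, adjusted p 0.534 by limma) and FOXO3 (357 and 398 against 381 and 422, -0.09, adjusted p 0.643). Among the genes higher with SLNCR1, IL8 was higher with delta-conserved as well (1079 and 1200 against 692 and 701, 0.71, adjusted p 1.21e-05), and UCN was not called (56.7 and 68.2 against 52.6 and 79.1, -0.05, adjusted p 0.926).

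Among the markers of other cell types at the level of the rule only ITGAM was called by limma, and some were well expressed, such as SLC45A3 (984 and 1009 normalized counts with SLNCR1, against 935 and 936) and KRT10 (608 and 661 against 593 and 634). The summed level of the 10 leukocyte markers was 130 and 149 normalized counts with SLNCR1 and 220 and 225 with the conserved region. Only ITGAM and LYZ of them met the level of the rule, and LYZ alone was at 54.4 and 68.4 against 45.4 and 54.0. PTPRC was at 0 and 1.10 with SLNCR1 and at 0 in both conserved-region libraries, and CD3E was at 0 in all 4. For 10 fibroblast markers, 3 of them at the level of the rule, the sums were 782 and 758 against 924 and 730. In conserved-region library a the collagen genes COL1A1 (276 against 139 in library b) and COL3A1 (53.5 against 2.0) were the higher of the pair. Sums of 10 markers each were 931 and 1049 against 843 and 934 for keratinocytes (KRT1, DSG3 and LOR at 0). They were 731 and 766 against 635 and 632 for endothelium (PECAM1 at 0), and 1486 and 1508 against 1352 and 1367 for prostate (MSMB at 0). The members of these lists at the level of the rule (3, 3 and 4) were not called by limma. The sum of 15 melanoma markers, 9 of them at the level of the rule, was 19190 and 19840 with SLNCR1 and 17210 and 18240 with the conserved region.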

How the data were processed

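RNA sequencing libraries of 8 samples were compared. Per the submitters' processing notes the authors used STAR, featureCounts and DESeq with hg19 (versions and annotation not given in the sources used here). Per the file headers and values, the deposited signal is the authors' group mean of reads over size factors, in 3 tables normalized separately, with the authors' p-values, which were not used. Whole reads of single libraries were solved from these means, with 1 solution for 100% of genes with reads (99.981% with the conserved region, where 6 genes took the solution nearest the ratio of totals). They were scaled by median-of-ratios size factors and tested with limma 3.58.1 in R 4.3.3 (4 groups, variance trend) on log2(normalized count + 1), which understates changes of low genes, over 16073 genes whose mean was at least 10, at a Benjamini-Hochberg adjusted p under 0.05. SE and adjusted p are limma's, and D comes from the tables. On simulated counts of SLNCR1 against the conserved region (16088 genes, 200 changed) 89.6% of genes changed 1.5-fold and 100% of those changed 2-fold or 4-fold were called, with 11 false among 204. The simulation gave all genes and groups a common dispersion (0.00123) and no effect of length or GC content. The SLNCR1 libraries differed more from each other than that, so these rates are not rates of the real contrast. Other steps used Python 3.11.15 (pandas 2.3.3). Alternatives were other scalings, filters, pseudocounts, variance priors and left-out libraries. Members and gene lists were chosen with earlier results of these data known. Genes named were those tied to SLNCR1, the 12 largest called differences each way with a symbol, and up to 6 called members each way of each list (2 by size where none was called), and others were chosen after their values were seen. Some further genes of this rule are not reported here.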

Additional observations from a re-analysis of the deposited data

How the results depend on the processing

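The 321 genes higher with SLNCR1 than with the conserved region became 510 with library totals, 133 with only the 4 libraries compared, 17 with a constant prior variance and 785 after removal of a smooth of length and GC content, and lay between 31 and 1413 when single libraries were left out (31 and 37 without conserved-region library a and b, 114 without SLNCR1 library b, 200 without delta-conserved library a, 1413 without SLNCR1 library a). The 1441 lower genes became 353 with a constant prior variance and 649 to 2388 without single libraries (649 and 738 without conserved-region library a and b, 2388 without SLNCR1 library a). Of the lower genes, the 575 also lower with delta-conserved became 151 with a constant prior variance and 199 to 802 without single libraries, and the 44 among the higher ones became 5, 10 to 75, and 94 after the length and GC correction. Trimmed-mean scaling, both other pseudocounts and both other filters on low values kept these counts within 1.5 times. Of 137 named genes called, 61 kept their call in each of 18 settings that tested them, 58 of them lower (a filter at a mean of 50 tested 122). Calls were lost for 54 and 57 of the 137 without conserved-region library a and b and for 41 without SLNCR1 library b, and ELK4 turned to 0.01 (adjusted p 0.926 by limma) after the correction, which was chosen after seeing the data. Among 546 medians of lists under alternatives, 518 moved by less than the spread between libraries. The 18 settings and the 546 medians both count the limma coefficient of the main fit, which keeps every call by construction. The median of the splicing list (-0.03) changed sign with the correction (0.05), and that of the fibroblast markers (0.02) with 5 settings. In each case the cause was not tested. A fit without a library leaves its group with no replicate spread, so counts from such fits rest on the spread of the other groups. With only 4 libraries the delta-conserved contrast could not be fitted. No paired analysis was possible because the recovered libraries carry no replicate number. Depth limits genes near the lower limit of the rule, where small differences were not detectable.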
